A study of Mus musculus with 6 samples.

Results

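The 9 PARP genes Parp1, Parp2, Parp3, Parp8, Parp9, Parp10, Parp11, Parp12 and Parp14 and the ubiquitin ligase gene Dtx3l were taken by gene symbol from an RNA-seq table of 54532 mouse genes, and all 10 were found. The table held 6 libraries of mouse aortic smooth muscle cells (MASMCs), which the study obtained by collagenase digestion of abdominal aortas of wild-type mice aged 10 weeks. In 3 libraries the cells had received an adenoviral vector with a control plasmid (Ad-Con, genotype label WT), and in the other 3 a vector with a plasmid overexpressing pyruvate dehydrogenase kinase 4 (Ad-PDK4, a kinase that inhibits the mitochondrial pyruvate dehydrogenase complex). Per the study, the cells of both groups were then treated with angiotensin II (Ang II), which the labels do not mention, and the 3 libraries of a group were biological replicates. The comparison asked what Ad-PDK4 changed in Ang II-treated cells. Values are FPKM (fragments per kilobase of gene length, scaled between libraries by the size factors described below). A difference was called at an adjusted p below 0.05 from limma on log2(FPKM + 0.1). Benjamini-Hochberg adjustment ran over the 13423 genes that had a mean of at least 0.5 FPKM.

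PARP enzymes transfer ADP-ribose from NAD to proteins, and some also to nucleic acids. PARP1, PARP2 and PARP3 are nuclear enzymes recruited to DNA breaks, and PARP1 and PARP2 make most of the poly(ADP-ribose) chains seen after DNA damage. Most of the other family members add single ADP-ribose units, and PARP9, PARP10, PARP11, PARP12 and PARP14 are known as products of interferon-stimulated genes. DTX3L, a Deltex-type E3 ligase, forms a stable complex with PARP9.

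The 6 libraries held 17588942 to 21861872 recovered reads, and 19650 to 20615 genes had a read. The targeted gene went against the label, since Pdk4 was lower in the libraries labelled Ad-PDK4, at 9.50, 10.4 and 10.1 FPKM in Ad-Con replicates 1 to 3 and 7.67, 7.40 and 7.38 FPKM in Ad-PDK4 (log2 fold change -0.42, SE 0.06, adjusted p = 1.14e-03). The methods list primers for a PDK4 plasmid in a pEnCMV vector transfected with Lipofectamine, the same pair as listed for RT-PCR of mouse PDK4. The sequence carried by the adenoviral vector was not given in the sources used here. Directions are given for the libraries as labelled. Of 10 vascular smooth muscle markers 4 passed the filter on low values, and these did not move together. Acta2 was lower, at 78.0 ± 0.950 FPKM in Ad-Con and 36.2 ± 2.40 FPKM in Ad-PDK4 (mean ± SD, n = 3 here and throughout), Cald1 was higher, at 56.0 ± 0.646 and 71.9 ± 2.82 FPKM (log2 fold change 0.36, adjusted p = 6.60e-04), and Smtn and Lmod1 did not pass at 0.02 and -0.29. The defining markers Myh11 and Tagln were nearly absent, with 2 to 10 and 4 to 20 reads per library. Under the filter and so not tested, Mylk was at 0.756 ± 0.138 and 0.123 ± 0.0239 FPKM. Cnn1 (0.466 ± 0.0643 and 0.247 ± 0.0882 FPKM) and Des (0.186 ± 0.0438 and 0.0468 ± 0.0112 FPKM) were lower in Ad-PDK4 too, each with no overlap of the groups. Myh11 and Myocd had higher means there and Tagln a lower one, with overlapping groups. Of 10 macrophage markers 5 were at 0 reads in every library, Ptprc, Tyrobp and the 3 C1q genes, and of 6 T and NK cell markers 5 were at 0 with Cd4 at 1 or 2 reads.

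All 10 genes passed the filter, with 225 to 7126 reads per gene and library. In the libraries labelled Ad-PDK4, 8 of the 10 were higher (21.8% of all tested genes were), 1 was lower (20.8% of all tested genes) and 1 did not pass. At a fold change of at least 2 as well, 6 of the 10 were higher, Parp9, Parp10, Parp11, Parp12, Parp14 and Dtx3l, against 3.95% of all tested genes. The libraries of the groups did not overlap for 8 genes that were higher (27.8% of all tested genes) and for 1 that was lower (26.5%). The median log2 fold change was 1.76 over the 10 genes and -0.003 over all tested genes. Fewer cells of a type and less RNA per cell cannot be told apart in such bulk samples. Markers of other cell types moved between the groups as well. The summed FPKM of 5 fibroblast markers was 1247 to 1341 in Ad-Con and 661 to 734 in Ad-PDK4, most of it from Col1a1. Of these 5, Col1a1, Col3a1 and Lum were lower, Dcn was higher (log2 fold change 0.83, adjusted p = 4.04e-04) and Pdgfra did not pass at -0.05. Among the macrophage markers, Cd68 was lower in Ad-PDK4 (14.2 ± 1.78 and 4.24 ± 0.991 FPKM, adjusted p = 4.39e-04). Lyz2 had a higher mean there (1.51 ± 0.195 and 1.98 ± 0.250 FPKM) but did not pass (adjusted p = 0.0791). Csf1r, under the filter, was at 0.258 ± 0.143 and 0.640 ± 0.0804 FPKM. The sum of the 10 macrophage markers was 14.97 to 17.9 and 5.92 to 7.44, most of it from Cd68. For 6 endothelial markers it was 0.617 to 0.798 and 0.885 to 1.18, most of it from Kdr (0.536 ± 0.110 and 0.919 ± 0.199 FPKM, adjusted p = 0.0645), the only one that passed the filter, whereas Pecam1 and Vwf had lower means in Ad-PDK4 and Emcn was at 0 reads. The part of these differences in the PARP values was not tested.

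**Figure D1:**
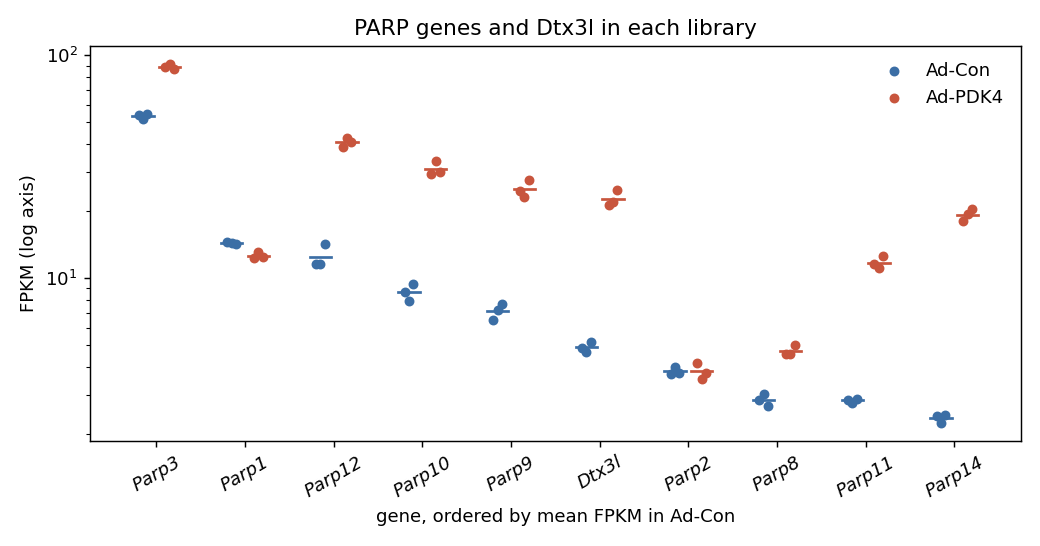
FPKM of the 10 genes in each library on a log axis, with 1 point per library, horizontal lines at the group means and genes ordered by their mean in Ad-Con (n = 3 per group). The points of the groups overlap for Parp2 alone, Parp1 is slightly lower in Ad-PDK4, and Parp14 moves from the lowest level, 2.36 FPKM, to 19.3 FPKM.

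Among the DNA damage enzymes, Parp1, Parp2 and Parp3 did not move together. Parp1 (chromosome 1, 180568924 to 180601254, plus strand, GRCm38 as in all coordinates here) encodes the main poly(ADP-ribose) polymerase. It was at 14.5, 14.4 and 14.2 FPKM in Ad-Con replicates 1 to 3 and at 12.3, 13.1 and 12.5 FPKM in Ad-PDK4. Every Ad-PDK4 library was below every Ad-Con library, by a margin of about the size of the spread within Ad-PDK4. The log2 fold change was -0.18 (SE 0.05, adjusted p = 0.0238), the smallest difference among the 9 that passed. The call did not hold without Ad-Con replicate 1 (adjusted p = 0.0770), 2 (0.0678) or 3 (0.0600), without Ad-PDK4 replicate 1 (0.0927), or after rescaling to TPM (0.0662), with log2 fold changes of -0.19 to -0.14.

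Parp2 (chromosome 14, 50807841 to 50821301, plus strand), whose product shares the role of PARP1 in poly(ADP-ribose) synthesis at breaks, was at 3.72, 3.99 and 3.74 FPKM in Ad-Con and 4.15, 3.54 and 3.77 FPKM in Ad-PDK4. The groups overlapped and had equal means of 3.82 FPKM. With an SE of 0.09 on the log2 scale (adjusted p = 0.995), no difference was detectable, on 225 to 302 reads per library. Parp3 (chromosome 9, 106470322 to 106476949, minus strand), whose product adds single ADP-ribose units at double-strand breaks, was the most highly expressed of the 10 genes in both groups. Its values were 53.9, 51.9 and 54.7 FPKM in Ad-Con and 88.5, 91.6 and 87.2 FPKM in Ad-PDK4. The groups lay far apart relative to their spread, with means of 53.5 ± 1.44 and 89.1 ± 2.25 FPKM, a ratio of 1.67 (log2 fold change 0.73, SE 0.05, adjusted p = 1.34e-05). Its body overlapped that of Rrp9 on the opposite strand by 987 bases, of which 20 were exonic in both.

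Besides Parp3, 5 of the 10 genes encode enzymes that add single ADP-ribose units, Parp8, Parp10, Parp11, Parp12 and Parp14. These 5 were all higher in the libraries labelled Ad-PDK4 (21.8% of all tested genes were higher). Their log2 fold changes ran from 0.72 to 2.98, with a median of 1.83. Family genes outside the 10, given below, did not all move this way, and Parp16 was lower. Parp14 (chromosome 16, 35832874 to 35871544, minus strand), which encodes a macrodomain-containing enzyme known from interleukin-4 and interferon responses, showed the largest difference of the 10. It was at 2.40, 2.25 and 2.44 FPKM in Ad-Con and at 18.1, 19.3 and 20.4 FPKM in Ad-PDK4, from 367 to 455 and 3068 to 4203 reads. The ranges were widely separated, and the means of 2.36 ± 0.101 and 19.3 ± 1.17 FPKM differed by a ratio of 8.17 (log2 fold change 2.98, SE 0.07, adjusted p = 1.00e-07). By log2 fold change it ranked 125 of the 13423 tested genes. Its level was above that of 25.6% of tested genes in Ad-Con and above 77.7% in Ad-PDK4.

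Parp11 (chromosome 6, 127446840 to 127494261, plus strand) encodes an enzyme known to modify the ubiquitin ligase beta-TrCP and so to limit the type I interferon receptor. Values of 2.85, 2.76 and 2.87 FPKM in Ad-Con stood against 11.5, 11.1 and 12.6 FPKM in Ad-PDK4. The Ad-Con libraries were nearly equal and every Ad-PDK4 library was well above them, at a ratio of means of 4.15 (log2 fold change 2.01, SE 0.07, adjusted p = 6.44e-07). Parp10 (chromosome 15, 76231174 to 76243441, minus strand), whose product is a mono-ADP-ribosyltransferase with ubiquitin-binding motifs, was at 8.67, 7.89 and 9.41 FPKM in Ad-Con and 29.3, 33.5 and 29.9 FPKM in Ad-PDK4. No Ad-PDK4 library came near the Ad-Con range, and the ratio of means was 3.57 (log2 fold change 1.83, SE 0.08, adjusted p = 2.13e-06). Plec, which encodes the cytolinker plectin, overlaps Parp10 on the same strand by 1401 bases. These include 205 exonic bases of both, 4.80% of the exonic length of Parp10. Plec was higher too (log2 fold change 0.50, adjusted p = 6.54e-03), and how reads in the shared exon were assigned was not stated.

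Parp12 (chromosome 6, 39086410 to 39118349, minus strand), which encodes a CCCH zinc finger enzyme with antiviral activity, was the second most abundant of the 10 genes in the libraries labelled Ad-PDK4. It was at 11.6, 11.6 and 14.2 FPKM in Ad-Con and 38.9, 42.4 and 40.9 FPKM in Ad-PDK4. Ad-Con replicate 3 stood above the other two, which gave Parp12 the widest relative spread in Ad-Con, a coefficient of variation of 12.4%. The difference exceeded that spread, with a ratio of means of 3.27 (log2 fold change 1.71, SE 0.09, adjusted p = 4.72e-06). Parp8 (chromosome 13, 116854820 to 117025537, minus strand), a little-characterised mono-ADP-ribosyltransferase gene, was at 2.84, 3.01 and 2.66 FPKM in Ad-Con and 4.59, 4.58 and 5.01 FPKM in Ad-PDK4. The groups did not overlap, but the ratio of means was 1.67 and so below 2-fold (log2 fold change 0.72, SE 0.08, adjusted p = 3.79e-04).

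The sequences before the starts of Parp11 and Parp12 are shown because both genes were more than 2-fold higher, lie on the same chromosome and differ in base composition. They are from RefSeq (GRCm38.p6), run 5′ to 3′ on the strand of each gene and cover the 250 bases before the start, chr6:127446590-127446839 on the plus strand for Parp11 and chr6:39118350-39118599 on the minus strand for Parp12. Capitals in Parp11 mark matches to the motifs named after the sequences, and Parp12 holds no match.
Parp11: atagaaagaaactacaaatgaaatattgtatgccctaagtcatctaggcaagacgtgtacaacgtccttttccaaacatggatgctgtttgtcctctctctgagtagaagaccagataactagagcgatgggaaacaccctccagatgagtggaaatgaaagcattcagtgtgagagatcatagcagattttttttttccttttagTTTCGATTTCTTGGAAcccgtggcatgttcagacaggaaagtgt
Parp12: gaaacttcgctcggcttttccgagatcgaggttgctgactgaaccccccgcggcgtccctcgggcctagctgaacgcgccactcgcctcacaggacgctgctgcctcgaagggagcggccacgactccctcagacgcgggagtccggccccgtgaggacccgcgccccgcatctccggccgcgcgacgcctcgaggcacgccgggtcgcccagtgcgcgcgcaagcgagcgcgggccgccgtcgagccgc
The Parp12 sequence was 73.6% G and C with 41 CpG dinucleotides, and the Parp11 sequence shown 40.4% with 5. Parp11 has another RefSeq start at 127453627, and the 250 bases before that start were 57.6% G and C with 20 CpG dinucleotides. Its window held no match to either motif named next. The core of the interferon-stimulated response element, GAAANNGAAA, and that of the gamma-activated site, TTCNNNGAA, were searched on both strands. In 8 RefSeq promoter windows of 7 of the genes (250 bases before to 50 after a start), the single match to each stood in Parp11, TTTCGATTTC starting 44 bases and TTCTTGGAA starting 37 bases before the start, overlapping each other by 3 bases. Of all 32851 promoter windows of 300 bases, 3.44% held the first motif and 8.30% the second. Windows for Parp9, Parp10 and Parp14 were not analysed here, and no match says only that these letters are not in the window.

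Parp9 and Dtx3l, the genes of the PARP9-DTX3L complex, lie head to head on chromosome 16. PARP9 has macrodomains that bind ADP-ribose, and DTX3L is the ubiquitin ligase of the pair. Parp9 (35938470 to 35972605, plus strand) was at 6.50, 7.24 and 7.70 FPKM in Ad-Con and 24.7, 23.2 and 27.6 FPKM in Ad-PDK4. The lowest Ad-PDK4 library was far above the highest Ad-Con library, and the ratio of means was 3.53 (log2 fold change 1.804, SE 0.09, adjusted p = 3.14e-06). Dtx3l (35926511 to 35939151, minus strand) was at 4.86, 4.66 and 5.18 FPKM in Ad-Con and 21.3, 22.0 and 25.0 FPKM in Ad-PDK4. Its groups were as clearly apart, with a ratio of means of 4.65 (log2 fold change 2.19, SE 0.08, adjusted p = 6.29e-07). The gene bodies overlap by 682 bases on opposite strands, 458 of them exonic in both, which is 9.40% of the exonic length of Parp9 and 8% of that of Dtx3l. Whether counting used strand was not stated, so reads from the overlap cannot be told apart.

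Parp14 lies 55.0 kb from Dtx3l, and all 3 genes of this stretch of chromosome 16 were more than 2-fold higher in the libraries labelled Ad-PDK4. Within 250 kb of Dtx3l the table held 23 genes, of which 9 passed the filter. Of these 9, 6 were higher (21.8% of all tested genes were higher) and 3 did not pass the test. The 6 higher genes include Parp14, Dtx3l and Parp9 themselves. None of the 9 was called lower by limma or by limma-voom on recovered reads, and 1 was lower at an unadjusted p below 0.05. The 6 neighbours that are no PARP or Dtx3l genes differed less. Among them Hspbap1 was at 0.768 ± 0.123 and 1.27 ± 0.146 FPKM (log2 fold change 0.67, adjusted p = 0.0219), Kpna1, encoding an importin, had a log2 fold change of 0.40 (adjusted p = 7.57e-03) and Fam162a of 0.32 (adjusted p = 3.27e-03). The Hspbap1 call did not hold without Ad-Con replicate 3 (adjusted p = 0.0623) or Ad-PDK4 replicate 1 (0.0891). Dirc2, Wdr5b and Ccdc58 did not pass, at -0.09, -0.18 and -0.26.

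**Figure D2:**
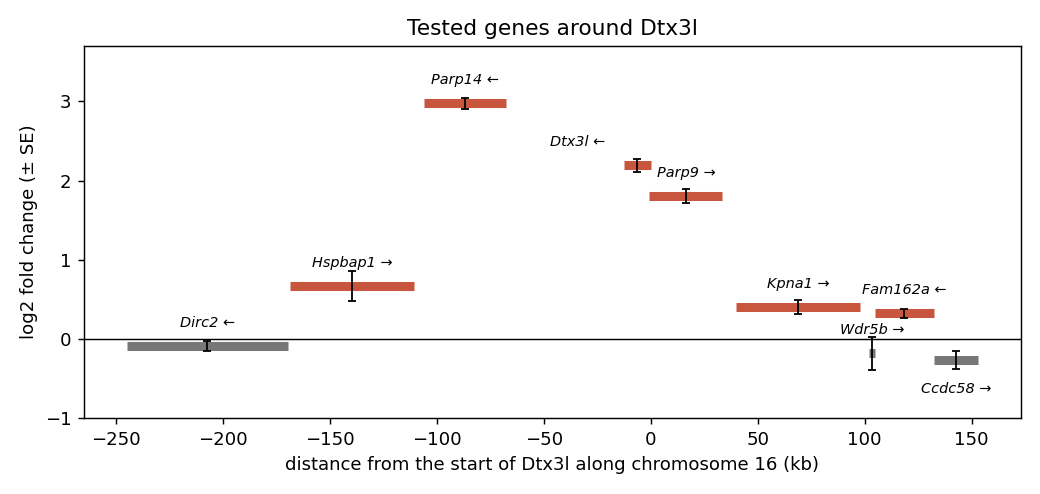
Log2 fold change of Ad-PDK4 over Ad-Con for the 9 tested genes around Dtx3l (vertical axis, ± SE), with each bar spanning the gene body as its distance in kb from the start of Dtx3l, arrows for the strand, red for genes past an adjusted p of 0.05 and grey for the rest. Parp14, Dtx3l and Parp9 lie at 2.98, 2.19 and 1.804, and no other gene of the window exceeds 0.67.

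Since FPKM is per length, the levels of the 3 genes can be set against each other within a library. Dtx3l over Parp9 was 0.747, 0.643 and 0.673 in Ad-Con and 0.861, 0.948 and 0.904 in Ad-PDK4. Parp14 over Parp9 was 0.369, 0.310 and 0.316 against 0.732, 0.832 and 0.740, and Parp14 over Dtx3l was 0.495, 0.482 and 0.470 against 0.851, 0.878 and 0.819. In each case every Ad-PDK4 ratio was above every Ad-Con ratio, with log2 differences of 0.40, 1.21 and 0.82. An exact two-sided permutation test gave p = 0.1 for each of the 3 ratios (0.1 after Benjamini-Hochberg adjustment over the 3), which is the smallest p that 3 against 3 libraries allow, so none could pass 0.05.

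The order of the 10 genes by level differed between the groups. In Ad-Con it ran Parp3, Parp1, Parp12, Parp10, Parp9, Dtx3l, Parp2, Parp8, Parp11 and Parp14 from the highest mean FPKM to the lowest. The library ranges of Parp1 and Parp12, and of Parp8 and Parp11, overlapped, so these neighbours did not differ beyond their spread. In Ad-PDK4 the order was Parp3, Parp12, Parp10, Parp9, Dtx3l, Parp14, Parp1, Parp11, Parp8 and Parp2, with overlapping ranges for Parp9 and Dtx3l and for Parp1 and Parp11. Parp1 thus stood second in Ad-Con and seventh in Ad-PDK4, while its own level differed by a ratio of 0.880.

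The remaining 7 genes of the PARP family were tested in the same way, with 1 higher, 1 lower and 5 that did not pass. Over all tested genes, 21.8% were higher and 20.8% lower. The median log2 fold change of the 7 was -0.05. Zc3hav1, which encodes the catalytically inactive antiviral protein ZAP (PARP13), rose from 19.7 ± 0.328 to 36.8 ± 1.60 FPKM (log2 fold change 0.90, adjusted p = 8.52e-06). Parp16, which encodes an endoplasmic reticulum enzyme, fell from 1.198 ± 0.118 to 0.368 ± 0.245 FPKM (log2 fold change -1.62, adjusted p = 0.0140), on only 9 to 91 reads per library. The tankyrase genes Tnks and Tnks2, which act in telomere and Wnt regulation, were at -0.05 and -0.08 and did not pass, nor did Parp4, Parp6 and Tiparp at 0.17, -0.17 and 0.01.

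**Figure D3:**
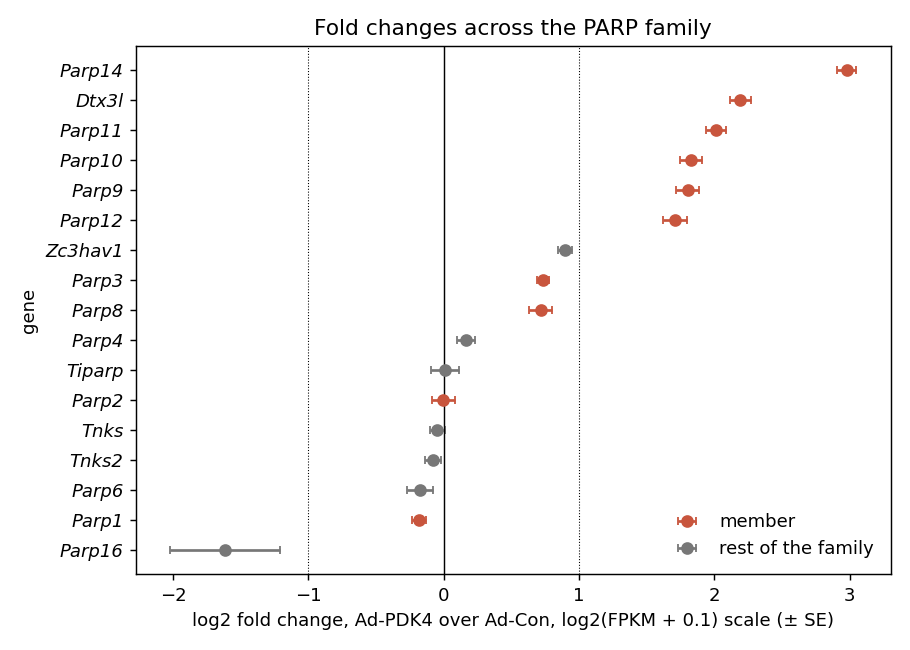
Log2 fold change of Ad-PDK4 over Ad-Con (± SE, log2(FPKM + 0.1) scale) for the 16 PARP genes and Dtx3l, with the 10 genes described in depth (labelled member) in red and the rest of the family in grey, and dotted lines at a 2-fold difference. Parp14, Dtx3l, Parp11, Parp10, Parp9 and Parp12 lie beyond 2-fold, from 1.71 to 2.98, and Parp16 is lowest at -1.62.

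Summed over the 16 PARP genes, FPKM was 181, 179 and 188 in Ad-Con and 320, 329 and 334 in Ad-PDK4. These shares are a description with no test. Parp9, Parp10, Parp11, Parp12 and Parp14, chosen because they passed 2-fold, made up 18.3 ± 1.07% of the sum in Ad-Con and 39.0 ± 0.618% in Ad-PDK4. The DNA damage enzymes Parp1, Parp2 and Parp3 made up 39.3 ± 0.518% and 32.2 ± 1.06%, of which Parp3 alone was 29.3 ± 0.378% and 27.2 ± 0.938%. The share of Parp1 and Parp2 together was 9.96 ± 0.366% and 5.02 ± 0.133%, although Parp2 had equal mean FPKM in both groups. In recovered reads, which are not per length, Parp1, Parp2 and Parp3 made up 25.3% and 21.8%.

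**Figure D4:**
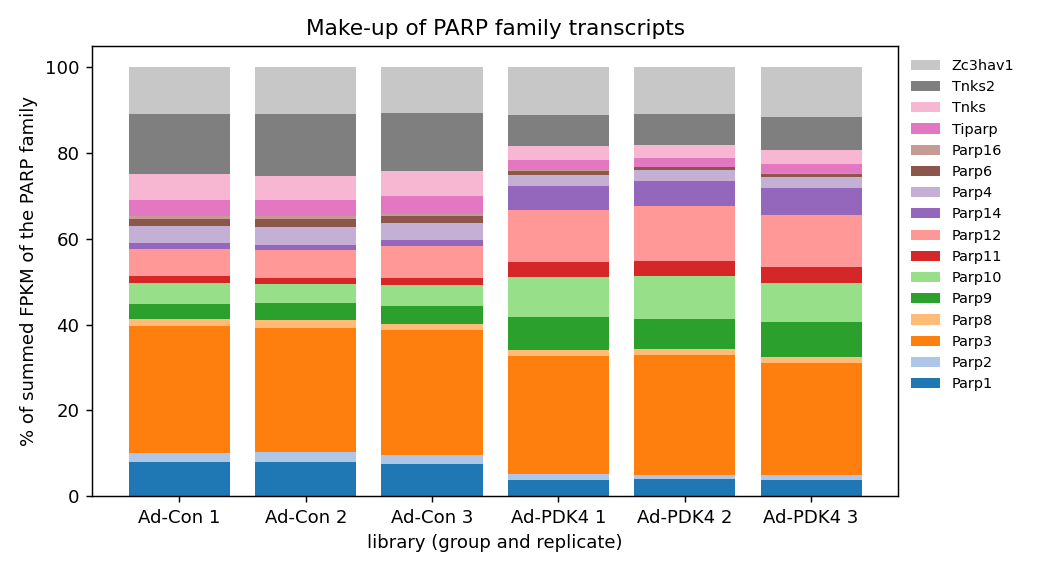
Share of each PARP gene in the summed FPKM of the 16-gene family (percent, stacked to 100) in each of the 6 libraries. Parp14 takes 1.29% on average in Ad-Con and 5.88% in Ad-PDK4, and Tnks2, whose own FPKM did not pass the test, goes from 13.9% to 7.36%.

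Genes that act beside the PARPs were read as lists, each given in full by its counts. For such counts, the shares over all tested genes were 21.8% higher, 20.8% lower and 3.95% higher by at least 2-fold. Of 8 genes for removal of ADP-ribose, 6 were tested, 1 was higher and 1 lower, with a median log2 fold change of -0.14. Oard1, whose product cleaves terminal ADP-ribose from proteins, fell from 12.9 ± 0.255 to 8.50 ± 0.197 FPKM (log2 fold change -0.60, adjusted p = 8.85e-05). Parg, encoding the glycohydrolase that degrades poly(ADP-ribose) chains, had a log2 fold change of 0.19 (adjusted p = 0.0465), a call that did not hold without Ad-Con replicates 1, 2 or 3 or Ad-PDK4 replicates 1 or 3 (adjusted p = 0.0749 to 0.147). Of 8 PARP partners and DNA repair factors, among them Hpf1, Xrcc1 and Lig3, none passed with limma. At an unadjusted p below 0.05, 1 was higher and 1 lower, and limma-voom called 1 higher. Of the 4 other Deltex ligases 3 were tested. Dtx4 was at a log2 fold change of 0.26 (adjusted p = 5.66e-03) and Dtx3 at -0.20 (adjusted p = 0.0493, and 0.0931 to 0.152 without Ad-Con replicates 1 or 2 or Ad-PDK4 replicates 1 or 3), in contrast to the 2.19 of Dtx3l.

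NAD, the substrate of the PARPs, has its own enzymes. Of 13 genes of NAD synthesis and use of its precursors 11 were tested, 3 were higher and 3 lower. These counts were near the shares over all tested genes, 21.8% higher and 20.8% lower. Nampt, which encodes the rate-limiting enzyme of NAD salvage, rose from 12.9 ± 0.349 to 23.1 ± 2.81 FPKM (log2 fold change 0.83, adjusted p = 1.96e-04). Nnmt, whose product methylates nicotinamide, rose from 18.0 ± 1.15 to 34.9 ± 1.94 FPKM (log2 fold change 0.95, adjusted p = 2.35e-05), and Nadk, the cytosolic NAD kinase gene, had a log2 fold change of 0.36. Nmnat2, on 25 to 87 reads per library, was at -1.09, Nadk2 at -0.38 and the mitochondrial NAD carrier gene Slc25a51 at -0.21. The last was no longer called without Ad-Con replicate 1 (adjusted p = 0.0680), and Nmnat2 fell under the filter without any single Ad-Con library, which left 1 gene lower without Ad-Con replicate 1 and 2 without replicate 2 or 3. Of 10 other NAD-consuming enzymes 9 were tested, 1 was higher and 3 lower. Cd38, encoding an NAD glycohydrolase, fell from 5.71 ± 0.400 to 2.87 ± 1.03 FPKM (log2 fold change -1.02, adjusted p = 9.47e-03). The sirtuin genes Sirt2, Sirt5 and Sirt7 were at -0.29, -0.31 and 0.26. Sirt5 was no longer called without any single Ad-Con library or without Ad-PDK4 replicates 1 or 2 (adjusted p = 0.0850 to 0.130), nor was Sirt7 without Ad-Con replicates 1 or 3 or Ad-PDK4 replicates 1 or 2 (adjusted p = 0.0623 to 0.0838).

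Since several of the PARP genes are known interferon-stimulated genes, receptors and factors of interferon signalling were listed too. Of 9 such genes 8 were tested and 6 were higher, against 21.8% of all tested genes. Of these 6, 5 were higher by at least 2-fold, against 3.95% of all tested genes. The median log2 fold change of the 8 was 1.29. Stat2 rose from 8.38 ± 0.187 to 52.1 ± 3.36 FPKM (log2 fold change 2.62) and Irf7 from 5.69 ± 0.794 to 184 ± 11.6 FPKM (5.00). Irf9 (1.58), Irf1 (1.35), the receptor genes Ifnar2 (1.22) and Ifngr1 (0.36) passed too, whereas Ifnar1 (0.04) and Ifngr2 (0.06) did not. Ifnb1, the interferon beta gene, lay under the filter with 0 reads in every Ad-Con library and 7, 5 and 5 reads in Ad-PDK4.

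The genes whose pattern over the 6 libraries was most like that of a PARP gene were found by the smallest root mean square difference in log2(FPKM + 0.1), centred on the Ad-Con mean, among 7731 genes with a mean of at least 5 FPKM. For Dtx3l these were Trim21 (difference 0.015), an antibody-receptor ubiquitin ligase gene, Gm20559 (0.069) and Uba7 (0.075), the ISG15-activating enzyme gene. For Parp9 they were the CTP synthase gene Ctps (0.049), Ddx58 (0.054), which encodes the RNA sensor RIG-I, and the oncostatin M receptor gene Osmr (0.063). For Parp14 they were the transcription factor gene Cebpd (0.089), the oligoadenylate synthetase gene Oas1a (0.097), which has close paralogs, and the immunity-related GTPase gene Irgm2 (0.14). Trim21 was at 3.47 ± 0.202 and 16.2 ± 1.27 FPKM, against 4.90 ± 0.266 and 22.8 ± 1.95 FPKM for Dtx3l.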

How the data were processed

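RNA of 6 MASMC samples underwent paired-end Illumina HiSeq sequencing. For library preparation, a SMARTER mRNA-Seq kit is named in the labels and a NEBNext Ultra kit in the methods. The submitters' processing notes name CASAVA 1.8, fastp, HISAT2 2.0.5, featureCounts 1.5.0-p3, DESeq2 1.20.0 and GRCm39, yet 54409 of the table's 54532 gene IDs are in GENCODE mouse release 21 (GRCm38), 98.3% with the same coordinates, so coordinates are GRCm38. Strand use in counting is not stated.

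The authors deposited FPKM per gene and library with the gene length, not pooled. FPKM times length gave whole multiples of 1 step per library for 100% of non-zero values (tolerance 0.01), called reads here. FPKM had been scaled with median-of-ratios size factors, as the step sizes show, so no further scaling was applied. Groups came from the treatment labels and replicates from the titles.

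FPKM was tested as log2(FPKM + 0.1) with limma 3.58.1 (R 4.3.3), trend and robust moderation and no covariates. P-values were Benjamini-Hochberg adjusted over genes averaging at least 0.5 FPKM. The code was also run on simulated data with fewer changed genes, which does not show how the test behaves on these data. Fold changes understate those of low genes. The 10 genes, the other lists and the tests were chosen with earlier results of these data known. The rule named all 10 genes, every called gene of the other lists, overlapping and neighbouring genes, and the 3 genes most like Parp9, Dtx3l and Parp14. Of the overlapping and neighbouring genes, those of the Dtx3l window, Rrp9 and Plec are given. Markers and list genes that did not pass lie outside the rule. Promoters were RefSeq windows. The alternatives tried were pseudocounts of 1 and 0.01, no filter, a minimum mean FPKM of 5, TPM, median-of-ratios, quantile and mtDNA-free scaling, plain moderation, limma-voom on reads, a replicate block and leaving out each library. Protein sequences were not used, and 1 gene of a planned list is not reported here.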

Additional observations from a re-analysis of the deposited data

How the results depend on the processing

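The 10 genes were recomputed under 17 alternatives. Of them 8 were higher in every alternative except a minimum mean of 5 FPKM, where Parp2 and Parp8 were not tested and 7 were higher, and 6 were higher by at least 2-fold in all 17. Log2 fold changes ranged over 0.68 to 0.78 for Parp3, 0.58 to 0.77 for Parp8, 1.68 to 1.86 for Parp9, 1.73 to 1.89 for Parp10, 1.73 to 2.08 for Parp11, 1.64 to 1.81 for Parp12, 2.59 to 3.05 for Parp14 and 2.01 to 2.25 for Dtx3l, and the 3 log2 ratio differences over 0.35 to 0.46, 1.15 to 1.29 and 0.79 to 0.84. The lower call of Parp1 was lost after rescaling to TPM (-0.14, 0 genes lower) and when single libraries were left out (-0.19 to -0.16 where lost, -0.21 to -0.16 over all 6, 0 to 1 genes lower). Parp2 changed sign to 0.0398 in TPM and 0.00425 with limma-voom, and ranged from -0.0605 to 0.0505 without single libraries, never passing the test. With the replicate number as a block 8 genes were higher and 1 lower. Same-numbered libraries did not deviate together (correlations of -0.046, -0.031 and -0.001). Such correlations cannot decide whether same-numbered libraries shared a cell isolation. The block gave 2759 higher and 2626 lower genes against 2928 and 2798.

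Small counts in the other lists moved. In the rest of the PARP family, TPM called 2 higher and a minimum mean of 5 FPKM 0 lower. For ADP-ribose removal, 0 were higher with no filter, quantile or mtDNA-free scaling or the block, and 3 were lower with the minimum of 5, quantile or mtDNA-free scaling and 2 with limma-voom or the block. Of the PARP partners and DNA repair factors 1 was higher with limma-voom or the block. Of the Deltex ligases 0 were lower with no filter, TPM or plain moderation, and of the NAD-consuming enzymes 0 were higher with no filter or quantile scaling and 1 lower with the minimum of 5. Leaving out single libraries gave 1 to 2 higher genes in the rest of the family, and 0 to 1 higher and 1 to 2 lower for ADP-ribose removal. PARP partners and DNA repair factors then had 0 to 1 higher and 0 to 1 lower genes, and Deltex ligases 0 to 1 lower. NAD synthesis had 1 to 3 lower genes and NAD-consuming enzymes 0 to 1 higher. In reads, Parp1, Parp2 and Parp3 made up 25.3% of the family in Ad-Con and 21.8% in Ad-PDK4, since reads are not per length. The cause of the other changes was not tested. The fewest reads lay behind Parp2, 225 to 302, and, in the rest of the family, Parp16, 9 to 91.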
